A study of Rattus norvegicus with 6 samples.

Results

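The genes described here are Lilrb4, Cd200r1, Cd300lf and Clec4a, which encode inhibitory receptors of myeloid cells. They were 4 of 14497 genes named on a rat whole-transcript array, and each was measured by 1 probe set that carried no other gene symbol. They had been chosen with results of these same arrays known, which already showed their levels by age and time. Their values, and what a fit across all genes gives for them, are therefore a description and no independent evidence of a pattern. All 4 genes reached the 40th percentile of an array at least once, the filter that left 10947 genes for the fit. Clec4a did so only on the array of aged rats at 14 d.

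RNA came from the brain of male Sprague-Dawley rats, in which an infarct had been made by transient hook occlusion of the middle cerebral artery, or from naive rats. The aged groups after stroke were pools of 23 rats aged 19 to 20 months at 3 d and at 14 d, and the young groups after stroke were pools of 19 rats aged 3 to 4 months at the same times. The naive groups were a pool of 15 aged rats of 18 to 20 months and a pool of 15 young rats of 3 to 5 months. Tissue after stroke was the area around the infarct, whereas the naive tissue is called healthy brain with no region named, so a difference between regions cannot be told apart from an effect of stroke. Each pool was hybridised to 1 array, which gives 6 arrays in all and no replicate within a group. The spread between animals is thus not seen, and precision is limited by having so few arrays.

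Inhibitory receptors set a brake on myeloid cells. Many carry short tyrosine motifs in their cytoplasmic tails that, once phosphorylated by Src family kinases, recruit the phosphatases SHP-1 (Ptpn6), SHP-2 (Ptpn11) or SHIP-1 (Inpp5d), which oppose signals of activating receptors. Lilrb4, known in the mouse as gp49B, is an immunoglobulin-like receptor of this kind. Cd300lf is an immunoglobulin-like receptor that binds phospholipids exposed on dying cells in the mouse, and Clec4a, also called Dcir1, is a C-type lectin. Cd200r1 has no such motif and signals through the adaptors Dok1 and Dok2. Its ligand Cd200 is displayed by neurons and other cells, and the pair is known for keeping microglia, the resident macrophages of the brain, in a quiet state.

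Promoter sequence is shown because all 4 genes had their highest value on the same array, and RefSeq (assembly GRCr8) gave it for 3 of them, as windows of 300 bases that end shortly after the start site. Lilrb4 lies on the minus strand at chr1:78853203-78853502, Cd300lf on the minus strand at chr10:100874973-100875272 and Clec4a on the plus strand at chr4:158100365-158100664. Capitals mark a PU-box, the letters GAGGAA or, on the other strand, TTCCTC, which is a core recognised by PU.1 (Spi1), a transcription factor of myeloid cells.
Lilrb4: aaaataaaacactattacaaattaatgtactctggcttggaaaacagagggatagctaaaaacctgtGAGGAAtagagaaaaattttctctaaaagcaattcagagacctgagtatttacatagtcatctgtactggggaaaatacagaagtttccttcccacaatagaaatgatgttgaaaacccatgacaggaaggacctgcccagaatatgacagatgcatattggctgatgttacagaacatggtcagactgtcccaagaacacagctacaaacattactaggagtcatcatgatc
Cd300lf: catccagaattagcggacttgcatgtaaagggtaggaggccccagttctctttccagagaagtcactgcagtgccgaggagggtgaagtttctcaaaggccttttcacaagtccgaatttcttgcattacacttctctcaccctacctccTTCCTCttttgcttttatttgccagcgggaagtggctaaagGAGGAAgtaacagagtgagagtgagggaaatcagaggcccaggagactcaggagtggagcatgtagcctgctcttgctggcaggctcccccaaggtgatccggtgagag
Clec4a: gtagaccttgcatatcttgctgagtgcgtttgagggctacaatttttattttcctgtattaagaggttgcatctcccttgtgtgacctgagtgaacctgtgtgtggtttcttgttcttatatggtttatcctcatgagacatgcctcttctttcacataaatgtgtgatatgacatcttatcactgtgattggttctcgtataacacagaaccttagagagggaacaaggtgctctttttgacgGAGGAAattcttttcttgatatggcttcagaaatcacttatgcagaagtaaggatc
The box was present in 3 of 3 of these promoters and in 27.6% of all 33469 promoters of the same length, searched on both strands. Counted from the start site, it lay at -183 to -178 in Lilrb4, at -100 to -95 (other strand) and -59 to -54 in Cd300lf, and at -6 to -1 in Clec4a. A shortened element of interferon regulatory factors (GAAANNGAA, in 9.71% of all promoters) was found in 1 of the 3, on the other strand of Cd300lf at -205 to -197. Motifs for AP-1 (TGANTCA, in 7.33% of all promoters), STAT factors (GAS, TTCNNNGAA, 8.87%) and C/EBP (TTGCNNAA, 10.6%), also searched on both strands, were found in 0 of the 3. None of the matches overlapped. A match is a string of letters in this window and was not tested as a binding site. Clec4a stands in a row of related lectins, after Clec4a1, Clec4a3 and Clec4a2 and before Clec4b2, Clec4d and Clec4e. Its promoter was 84.1% identical to that of Clec4a2 over 271 aligned bases, 76.3% to that of Clec4a1 over 169 and 74.9% to that of Clec4a3 over 219. Only aligned bases without gaps are counted, so such values run high. Cd300lf and Clec4a1, of different families, reached 77.2% over 145 bases. The PU-box was also found in the promoters of Clec4a1 and Clec4a3, and not in that of Clec4a2. Lilrb4 stands next to Lilrb3 and Lilra5, Cd200r1 next to Cd200r1l, and Cd300lf near Cd300le and Cd300e. Relatives this close may share probe sequence, so single values within these families are uncertain.

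All 4 genes had their highest value on the array of aged rats at 14 d, and at that time each was more than 2-fold higher in aged than in young rats. Lilrb4 had log2 values of 5.29 in naive rats, 9.17 at 3 d and 9.43 at 14 d in the aged series, against 5.80, 8.84 and 7.06 in the young series. Both ages were thus high at 3 d, and at 14 d the aged value stayed high while the young value lay between its naive and its 3 d value. The aged-minus-young difference of Lilrb4 was -0.51 in naive rats, 0.32 at 3 d and 2.37 at 14 d, the last being a 5.17-fold difference. No tested gene had a larger aged-minus-young difference at 14 d.

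Against naive rats of the same age, Lilrb4 was 14.7-fold higher at 3 d in aged and 8.24-fold higher in young rats, and at 14 d 17.7-fold higher in aged and 2.39-fold higher in young rats. Both naive values lay below the 40th percentile of their arrays, where array signals are compressed, so the folds against naive are rough.

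**Figure D1:**
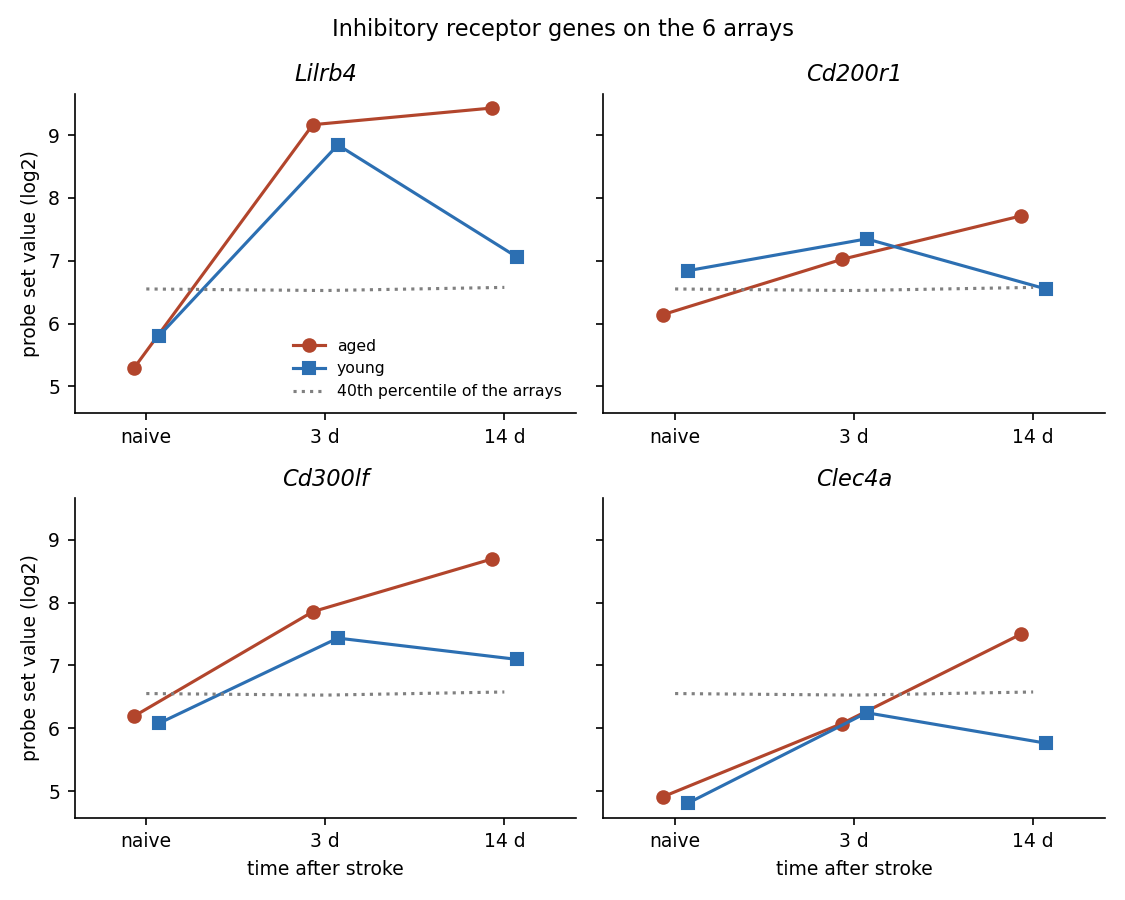
Log2 value of the probe set of each receptor gene (y axis) in naive rats, at 3 d and at 14 d after stroke (x axis). Red circles are aged rats and blue squares young rats, each point is 1 array of 1 pool, and the dotted line is the mean 40th percentile of the arrays of that time. The aged and young lines lie apart at 14 d in all 4 panels, by 2.37 for Lilrb4 and by 1.16 for Cd200r1.

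Clec4a had values of 4.91 in naive rats, 6.07 at 3 d and 7.49 at 14 d in the aged series, against 4.80, 6.25 and 5.76 in the young series. The ages were close in naive rats and at 3 d, with differences of 0.10 and -0.17, and stood 1.73 apart at 14 d, or 3.32-fold. Only the aged 14 d value passed the 40th percentile of its array, so the other 5 values are near the dim end of the array. Against naive, Clec4a was 6.01-fold higher at 14 d in aged and 1.94-fold higher in young rats. At 3 d it was higher by 1.16 in aged and by 1.44 in young rats on the log2 scale.

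Cd300lf had values of 6.19 in naive rats, 7.85 at 3 d and 8.69 at 14 d in the aged series, against 6.08, 7.43 and 7.10 in the young series. It was higher after stroke than in naive rats in both ages, by 5.67-fold in aged and 2.03-fold in young rats at 14 d. Both naive values lay below the 40th percentile of their arrays, so these folds are rough. The difference between ages widened with time, from 0.11 in naive rats to 0.42 at 3 d and 1.60 at 14 d (3.02-fold). For Cd300lf 14 tested genes, and for Clec4a 7, had a larger aged-minus-young difference at 14 d.

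Cd200r1 had values of 6.14 in naive rats, 7.02 at 3 d and 7.71 at 14 d in the aged series, against 6.84, 7.35 and 6.55 in the young series. Its values spanned the narrowest range of the 4, and it was the one member that was lower in aged than in young rats both in naive tissue, by -0.70, and at 3 d, by -0.33. At 14 d the order was the other way round, with a difference of 1.16, or 2.23-fold, and 54 tested genes had a larger one. In naive rats 3 tested genes had a lower aged-minus-young difference than Cd200r1. At 14 d Cd200r1 stood 2.97-fold above naive in aged rats, whereas in young rats it stood 0.29 below naive (difference -0.29). Its aged naive and young 14 d values lay below the 40th percentile of their arrays, so these differences are rough.

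These differences were set against those of all tested genes, as a description of the arrays. The middle 95% of aged-minus-young differences ran from -0.32 to 0.36 in naive rats, from -0.48 to 0.39 at 3 d and from -0.55 to 0.80 at 14 d. The 2 arrays at 14 d thus lay further apart across all genes than those of the other times. At 14 d an aged-minus-young difference of at least 1 was found in 114 of 10947 tested genes (1.04%), and in 4 of 4 receptor genes. This was the contrast by which the genes were known beforehand, so nothing is read from that count. The like share of tested genes was 0.164% in naive rats and 0.0274% at 3 d, with 0 of the 4 receptor genes at either time. Over the 4 genes the median aged-minus-young difference was -0.21 in naive rats, 0.07 at 3 d and 1.66 at 14 d, beside -0.00, -0.06 and 0.02 over all tested genes.

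Between 3 d and 14 d the differences had opposite signs in the ages for all 4 genes. The 14 d minus 3 d difference of Lilrb4 was 0.27 in aged and -1.78 in young rats. For Clec4a it was 1.42 in aged and -0.48 in young rats. For Cd300lf it was 0.84 in aged and -0.34 in young rats, and for Cd200r1 0.69 in aged and -0.80 in young rats. The young difference was thus furthest from 0 for Lilrb4, and the aged difference furthest from 0 for Clec4a. A difference above 0 in aged and below 0 in young rats was found in 3232 tested genes (29.5%), so the direction alone is common on these arrays. These differences share the arrays at 14 d with the age differences above and are not a separate observation.

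**Figure D2:**
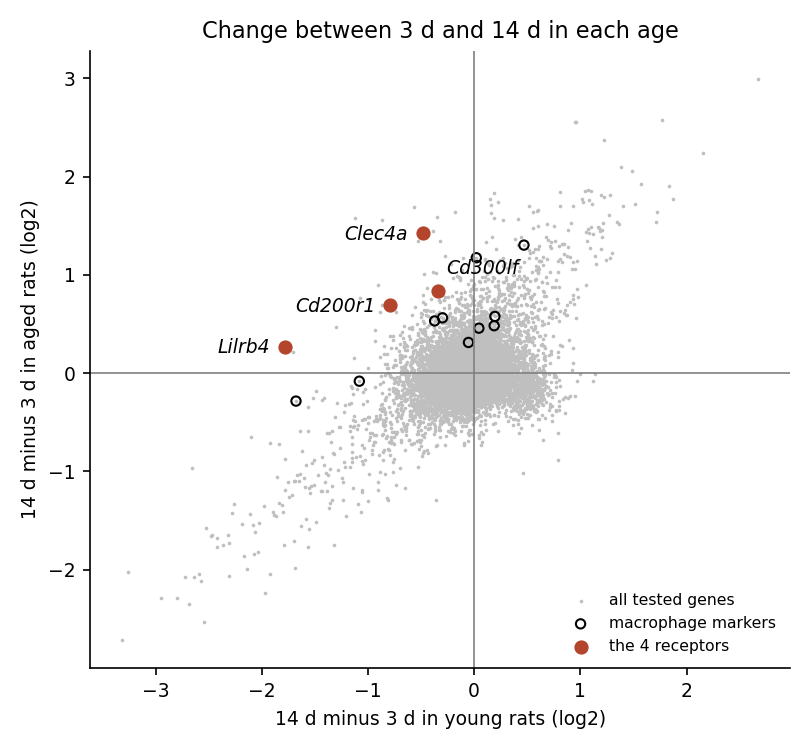
Difference between 14 d and 3 d in aged rats (y axis) against that in young rats (x axis), both in log2 units. Grey dots are the 10947 tested genes, black rings the 10 macrophage or microglia marker genes and red dots the 4 receptor genes, which all lie above 0 in aged and below 0 in young rats, as do 29.5% of the tested genes.

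A limma model with additive terms for age and time, fitted to all tested genes over the 6 arrays, takes the young and the aged array of a time as repeated measurements. In that fit Lilrb4 was higher than naive by 3.46 ± 0.55 at 3 d and by 2.70 ± 0.55 at 14 d (log2 difference ± SE), Cd300lf by 1.51 ± 0.31 and 1.76 ± 0.31, Clec4a by 1.30 ± 0.39 and 1.77 ± 0.39, and Cd200r1 by 0.69 ± 0.38 and 0.64 ± 0.38. The wide errors of Lilrb4 hold the gap between ages, because the model counts as error any gap between ages that is not the same at all times. Lilrb4 and Cd300lf, 2 of 4 genes, were called higher at 3 d, beside 14.4% of tested genes (7.87% were called lower and 22.2% in either direction). At 14 d Lilrb4, Cd300lf and Clec4a, 3 of 4, were called higher, beside 13.6% of tested genes (11.4% were called lower and 25% in either direction). These calls depended on the setting. With trended and robust variances Lilrb4 was called at neither time, and in a model of time alone Cd300lf was not called at 3 d. Without the aged naive array 0 of the 4 were called at 14 d, with Lilrb4 alone called at 3 d, and without the young naive array Clec4a was not called at 14 d. Clec4a had entered the fit only through the aged 14 d array, where it was highest, so its call supports nothing, and without that array it was not tested. Without the young 14 d array all 4 were called at both times. For 14 d against 3 d 0 of 4 were called, beside 3.16% of tested genes in either direction (1.34% higher and 1.82% lower). Without the aged 14 d array Lilrb4 and Cd200r1 were called lower at 14 d than at 3 d, and without the young 14 d array Cd200r1, Cd300lf and Clec4a were called higher. For aged against young 0 of 4 were called, and 0% of all tested genes passed in limma, with 852 of them at an unadjusted p under 0.05. The comparisons with naive share the naive arrays. Because the genes were chosen on these arrays, their calls are part of the description.

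The 4 profiles were not alike in shape. After each gene was centred on its own mean over the 6 arrays, Cd300lf and Clec4a differed by a root mean square of 0.20 on the log2 scale, and 3 genes were closer to Cd300lf and 2 closer to Clec4a. Cd200r1 differed by 0.58 from Cd300lf and by 0.54 from Clec4a. Lilrb4 differed by 0.85 from Cd300lf, by 0.93 from Clec4a and by 1.24 from Cd200r1, and its range over the arrays was wider. By the same measure the genes closest to Lilrb4 were Clec12a (0.44), S100a11 (0.47), Rac2 (0.49), Lyz2 (0.50) and Apobec1 (0.51). Those closest to Clec4a, apart from Cd300lf, were Cd8b (0.15), Or6n2 (0.19), Adcy4 (0.21) and Klra2 (0.21). For Cd300lf they were Arhgap17 (0.18), Ch25h (0.20), Adap2 (0.20) and Nrros (0.21) beside Clec4a, and for Cd200r1 Clec2d2 (0.15), Cfp (0.16), Ctla2a (0.20), Or10aa1 (0.21) and Pik3cd (0.22). Between Cd200r1 and the others the distances were common ones, as 6792 genes were closer to Cd200r1 than Cd300lf was and 5466 closer than Clec4a was. The measure rests on 6 arrays.

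Because the tissue is bulk brain, more cells of a type and more RNA per cell cannot be told apart. For the marker counts below, 14.4% of all tested genes were called higher at 3 d and 13.6% at 14 d, and 7.87% and 11.4% lower. All 10 markers of macrophages or microglia rose at 3 d and at 14 d (limma, Benjamini-Hochberg adjusted p under 0.05). Their summed log2 values were 98.92 in aged and 99.17 in young rats at 3 d, 103.96 in aged and 96.61 in young rats at 14 d, and 78.11 in aged and 74.56 in young naive rats. At 14 d all 10 were higher in aged rats, by 0.37 to 1.26 (median 0.70), with Cd68, a lysosomal marker of phagocytes, at 11.48 in aged and 10.22 in young rats. The receptor genes differed by 1.16 to 2.37 at that time. The part of these markers in the receptor differences was not tested. Markers of resting microglia rose in 5 of 5 cases at both times and had a median aged-minus-young difference of 0.38 at 14 d, while those of blood monocytes, of which 5 of 6 tested rose at both times, had 0.13. Of the resting microglia markers 4 were called at 3 d after quantile normalization or median centring, without the filter and in a model of time alone. Fewer were also called at 3 d without any 1 of the naive or 3 d arrays, and at 14 d without either naive array. Without the aged naive array 2 monocyte markers and without the young naive array 3 were called at 14 d. Border macrophage markers rose in 4 of 6 cases at both times, though at 14 d in 1 of 6 without either naive array, and had a median of 0.35 at 14 d. Of 8 neutrophil markers 6 lay below the 40th percentile on every array, and Csf3r and Mmp8 rose at both times. All 6 matched mast cell markers lay below it on every array. Of dendritic cell markers 0 of 5 tested rose at either time in limma, and 1 (Zbtb46) fell at 3 d, a call lost after quantile normalization, without the filter, with trended and robust variances, in a model of time alone and without any 1 of the naive or 3 d arrays. Of natural killer cell markers 0 of 3 tested passed in either comparison. Of 7 matched lymphocyte markers 4 (Cd3e, Cd3d, Cd3g and Ms4a1) lay below the 40th percentile on every array. Of the 3 tested, Cd4 and Cd8a rose at 3 d and Cd4 at 14 d, while Cd79b passed at neither time. Cd4 already stood at 8.99 in aged and 8.23 in young naive rats. Which cells held the Cd4 and Cd8a RNA was not tested, so these calls are not read as more lymphocytes. The calls at 3 d were lost without the young naive or the young 3 d array. Neuron markers at 14 d had a median aged-minus-young difference of -0.08, with summed log2 values of 79.26 in aged and 79.75 in young rats. Of the 7 neuron markers 1 fell at 3 d (3 after quantile normalization or median centring) and 3 at 14 d, with 1 called at 14 d without either naive array. Astrocyte markers rose in 2 of 5 cases at 3 d and in 4 of 5 at 14 d, with 1 called at each time without either naive array. Of 4 oligodendrocyte markers 1 (Mog) fell at each time. With 1 array left out, the counts of dendritic cell, natural killer cell and oligodendrocyte markers called in a direction moved by at most 2 genes. With all arrays these counts were 0 or 1, so this bound is no smaller than the counts and no stability is read from it.

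**Figure D3:**
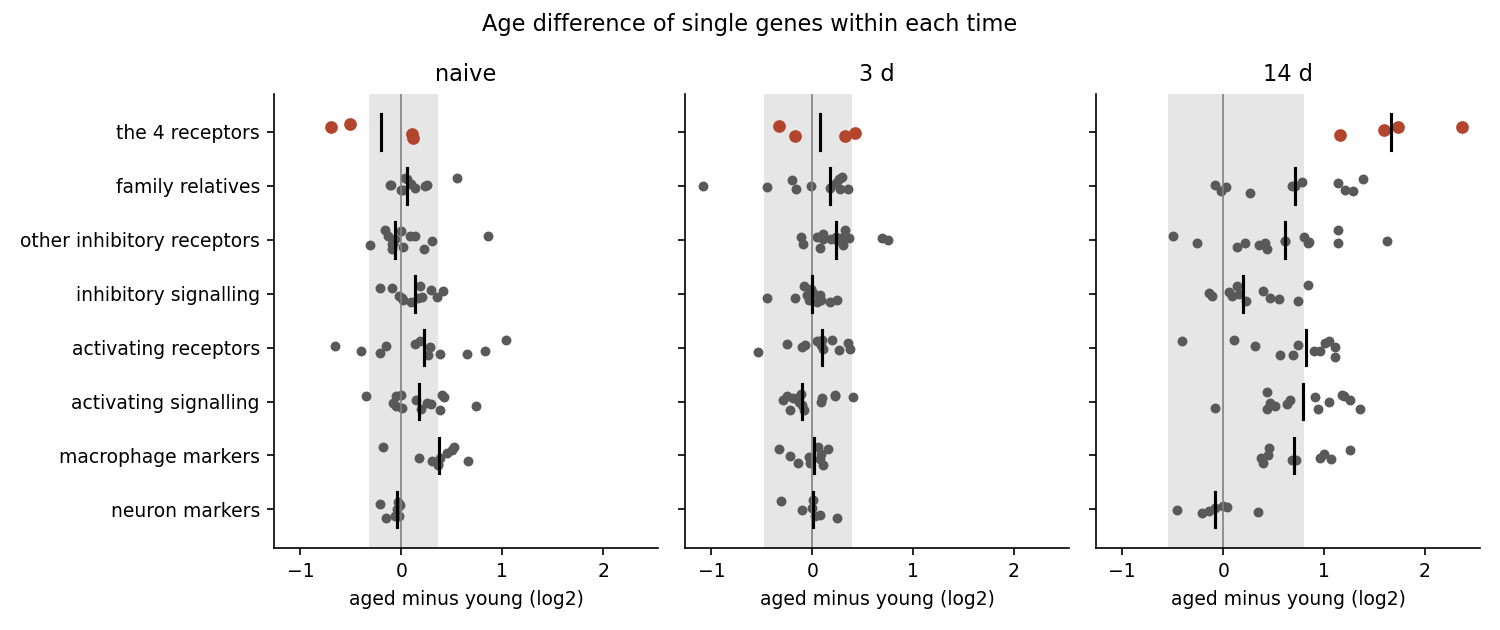
Aged minus young log2 difference (x axis) of each gene in naive rats, at 3 d and at 14 d (panels from left to right), for the 4 receptor genes in red and for 7 other gene lists in grey (rows). Each dot is 1 gene on 1 pair of arrays, the black bar is the list's median and the shaded band holds the middle 95% of all tested genes. At 14 d the medians are 1.66 for the receptors, 0.70 for macrophage markers and -0.08 for neuron markers.

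Among 11 family relatives on the array, 6 passed the filter, 3 of these rose at 3 d and 4 at 14 d, and 0 fell. Of all tested genes 14.4% and 13.6% were called higher at these times. The lectins Clec4a3 and Clec4a1, from the same gene row as Clec4a, rose by 2.73 ± 0.36 and 2.40 ± 0.21 at 3 d and by 2.57 ± 0.36 and 2.23 ± 0.21 at 14 d. Clec4a3 reached 7.91 at 3 d and 8.67 at 14 d in aged rats, against 8.36 and 7.28 in young rats. Clec4a3 thus also parted by age at 14 d, with a difference of 1.39. Clec4a2 did not pass the filter, with values of 4.75 in aged and 5.84 in young rats at 3 d and of 5.00 in aged and 4.31 in young rats at 14 d. The inhibitory Cd300a rose by 0.84 ± 0.21 at 3 d and by 1.33 ± 0.21 at 14 d, and both calls were lost without the aged naive array (0.70 and 1.19). Lilra5, an activating relative of Lilrb4, rose by 1.10 ± 0.26 at 14 d, a call also lost without the aged naive array (0.70), and its difference at 3 d was 0.37 and did not pass. Without that array 2 relatives in place of 4 were called at 14 d. Pira2 and Lilrb2 passed at neither time, with differences of 0.76 and 0.48 at 14 d. Lilra5, Pira2 and Lilrb2 had entered the fit only through the aged 14 d array, where each was highest. The call of Lilra5, 1 of the 4 at 14 d, thus supports nothing. Without the aged 14 d array only 3 relatives were tested. The median aged-minus-young difference of the 11 relatives was 0.06 in naive rats, 0.18 at 3 d and 0.72 at 14 d.

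Other inhibitory receptors rose in 6 of 12 tested cases at 3 d and in 9 of 12 at 14 d, and 0 fell. Among all tested genes 14.4% and 13.6% were called higher. Fewer of the list were called at each time without the aged naive array and at 3 d without either 3 d array. At 14 d this also held without the young naive or the aged 14 d array. Milr1, counted at both times, had entered the fit only through the aged 14 d array, where it was highest. Its calls thus support nothing, and without that array it was not tested. Fcgr2b, the inhibitory Fc receptor, rose by 2.68 ± 0.20 at 3 d and 2.99 ± 0.20 at 14 d. Its values at 14 d were 10.64 in aged and 9.50 in young rats. Clec12a, an inhibitory lectin and the gene closest in profile to Lilrb4, rose by 2.71 ± 0.35 and 1.97 ± 0.35, with 8.76 in aged and 7.14 in young rats at 14 d. Havcr2 (Tim-3) rose by 1.06 ± 0.21 at 3 d, a call lost without the aged naive array (0.76), and by 1.99 ± 0.21 at 14 d. Cd22 and Cd72, known from B cells, were the 2 genes of this list that were higher at 14 d than at 3 d, by 1.55 ± 0.15 and 1.38 ± 0.18, beside 1.34% of tested genes called higher. Cd22 had 8.42 in aged and 7.82 in young rats at 14 d. Sirpa, the receptor of Cd47, and Ceacam1 passed at neither time, with 14 d differences of 0.30 and 0.13. Ceacam1 was 1.14 higher in aged than in young rats at 14 d, and its 14 d difference from naive turned to -0.25 without the aged naive and to -0.23 without the aged 14 d array. Over the 15 measured genes of this list the median aged-minus-young difference was -0.06 in naive rats, 0.24 at 3 d and 0.61 at 14 d. At 14 d 3 of them reached 1, beside 1.04% of tested genes.

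The ligands had a median age difference near 0 at each time. Cd200, the ligand of Cd200r1, had values of 9.98 in aged and 10.10 in young rats at 3 d, 9.67 in aged and 9.76 in young rats at 14 d, and 10.12 in aged and 10.10 in young naive rats. It was lower at 14 d in both ages, by -0.40 ± 0.12 (adjusted p = 0.0455 in limma), and this call was lost without any 1 of the 6 arrays (-0.34 to -0.46), after quantile normalization (-0.35) and without the filter. The share of tested genes called lower at 14 d was 11.4%. Other ligands of inhibitory receptors were listed with it. Collagen Col1a1, a ligand of Lair1, rose by 0.93 ± 0.14 at 3 d and by 2.20 ± 0.14 at 14 d, and was higher at 14 d than at 3 d by 1.27 ± 0.14. Fibronectin (Fn1) rose by 2.30 ± 0.15 and 1.67 ± 0.15, and Lgals9, a ligand of Tim-3, rose by 1.02 ± 0.14 at 14 d. Itgb3, an integrin chain, rose by 0.81 ± 0.13 at 3 d, a call lost without either naive array (0.83 and 0.79), and by 0.88 ± 0.13 at 14 d. Cd47 passed at neither time, with differences of -0.03 and 0.04. In all 3 of 7 tested ligands rose at 3 d, and at 14 d 5 rose and 1 fell. Of all tested genes 14.4% were called higher at 3 d and 13.6% at 14 d. The median aged-minus-young difference of the 9 measured ligands was 0.02 in naive rats, -0.03 at 3 d and -0.01 at 14 d. At 14 d 0 of them reached 1, beside 1.04% of tested genes.

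Of the inhibitory signalling genes 7 of 11 tested rose at each time, beside 14.4% and 13.6% of all tested genes, and 0 fell. The count fell to 3 at 3 d and to 3 at 14 d without the aged naive array, to 4 and 3 without the young naive array, to 4 at 3 d without either array of that time and to 4 at 14 d without the aged 14 d array. SHP-1 (Ptpn6) rose by 1.98 ± 0.17 at 3 d and 2.17 ± 0.17 at 14 d, with 9.14 in aged and 8.59 in young rats at 14 d. SHIP-1 (Inpp5d) rose by 1.86 ± 0.18 and 1.88 ± 0.18, with 9.96 in aged and 9.12 in young rats at 14 d. The adaptor Sla, which limits receptor signalling, rose by 2.09 ± 0.18 and 1.92 ± 0.18. Csk, the kinase that restrains Src family kinases, rose by 0.93 ± 0.14 and 0.66 ± 0.14. Its 3 d call was lost without the aged naive array (0.93), and its 14 d call without either naive array (0.66 and 0.67) or the aged 14 d array (0.50). SHP-2 (Ptpn11), which most cells express, passed at neither time, with differences of -0.18 and -0.19.

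The adaptors of Cd200r1 gave smaller values. Dok1 rose by 0.71 ± 0.17 at 14 d, a call lost without the aged naive (0.66), the young naive (0.76) or the aged 14 d array (0.43), and its difference at 3 d was 0.31. Dok2 lay below the 40th percentile on every array, between 5.82 and 5.98, and was not tested. Dok3 passed at neither time, with 0.41 and 0.29. The median aged-minus-young difference of the 12 inhibitory signalling genes was 0.13 in naive rats, -0.00 at 3 d and 0.20 at 14 d. At 14 d 0 of them reached 1, beside 1.04% of tested genes.

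The activating partners rose as well. Of activating receptors and adaptors, 9 of 10 tested rose at each time, beside 14.4% of all tested genes at 3 d and 13.6% at 14 d. Without the aged naive array fewer of the list were called at each time. Clec5a, counted at both times, had entered the fit only through the aged 14 d array, where it was highest. Its calls thus support nothing, and without the aged 14 d array it was not tested. Clec7a (Dectin-1), a lectin for fungal glucans, rose by 4.55 ± 0.21 at 3 d and 4.46 ± 0.21 at 14 d, with 10.78 in aged and 10.46 in young rats at 14 d. Fcer1g, the signalling chain of Fc receptors, rose by 2.42 ± 0.18 and 2.46 ± 0.18, with 12.35 in aged and 11.24 in young rats at 14 d. Csf2rb, a cytokine receptor chain, rose by 2.93 ± 0.21 and 2.47 ± 0.21, and the Fc receptor Fcgr3a rose by 2.45 ± 0.22 and 1.81 ± 0.22. Hcst (Dap10) passed at neither time, with 0.81 and 1.01. The list's median aged-minus-young difference was 0.82 at 14 d, and 4 of its 12 measured genes reached 1, beside 1.04% of tested genes.

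Activating signalling genes rose in 11 of 14 cases at 3 d and in 13 of 14 at 14 d, and 0 fell. The shares of all tested genes called higher were 14.4% and 13.6%. Fewer of the list were called at each time without either naive array. The same held at 3 d without the young 3 d array and at 14 d without the aged 14 d array. The adaptors Lcp2 (SLP-76), Blnk and Fyb1 rose by 2.57 ± 0.22, 2.37 ± 0.18 and 2.02 ± 0.30 at 3 d, and by 2.45 ± 0.22, 2.48 ± 0.18 and 2.49 ± 0.30 at 14 d. Fyb1 had 9.61 in aged and 8.25 in young rats at 14 d. Pik3ap1, an adaptor of PI3-kinase, rose by 2.09 ± 0.24 and 2.36 ± 0.24. The PI3-kinase subunit Pik3cd, also among the genes closest to Cd200r1, rose by 0.78 ± 0.21 and 0.75 ± 0.21, and both calls were lost without the aged naive array (0.43 and 0.39). Its 3 d call was also lost without either 3 d array (0.81 and 0.75) and its 14 d call without the aged 14 d array (0.37). Src passed at neither time, with -0.17 and -0.22. The median aged-minus-young difference was 0.17 in naive rats, -0.10 at 3 d and 0.79 at 14 d. In 5 of 14 genes it reached 1 at 14 d, beside 1.04% of all tested genes. For 14 d minus 3 d 11 of 14 were above 0 in aged and below 0 in young rats, beside 29.5%. This was the highest such count among the pathway lists. The same held for 5 of 11 family relatives, 5 of 12 activating receptors and adaptors and 5 of 12 inhibitory signalling genes. It held for 2 of 15 other inhibitory receptors, 1 of 9 ligands and 3 of 10 macrophage or microglia markers. Whether the receptor genes differed from these lists by age was not tested, since each age and time had 1 array.

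**Figure D4:**
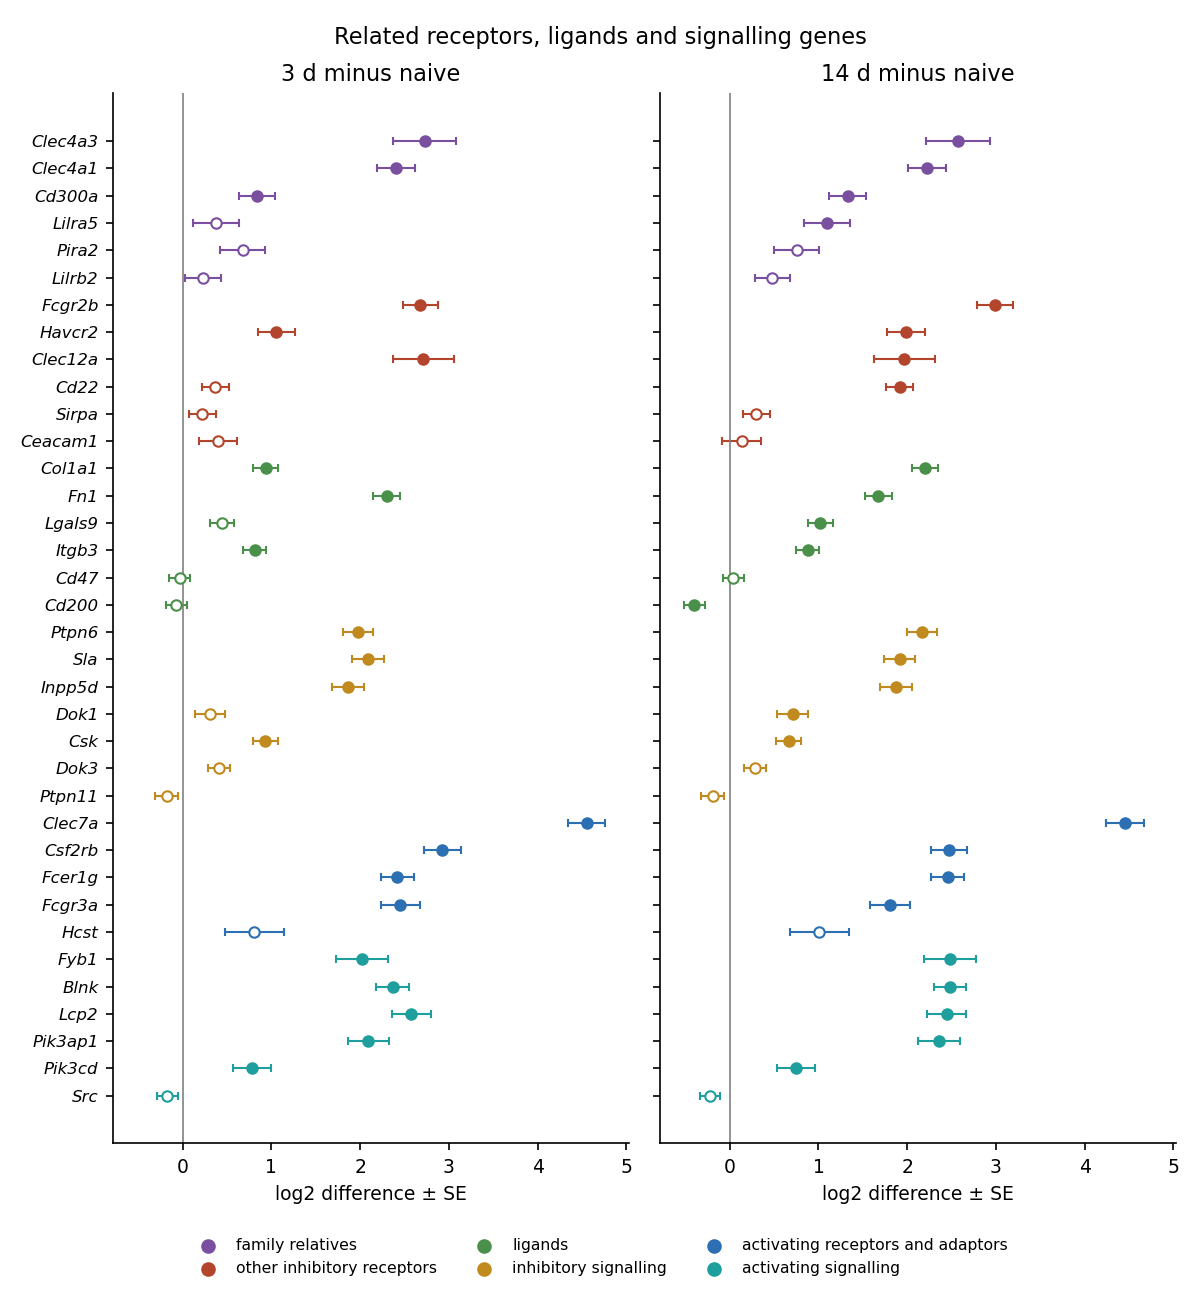
Log2 difference from naive (x axis) at 3 d (left) and 14 d (right) for genes related to the receptors (rows, coloured by list), from the limma fit over the 6 arrays. Points are fitted differences and bars are 1 SE on each side, filled points passed an adjusted p of 0.05 and open points did not. Clec7a is the furthest to the right, at 4.55 and 4.46, and Cd200 at -0.40 is the one filled point left of 0 at 14 d.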

How the data were processed

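RNA levels were measured on 6 single-channel Affymetrix arrays, 1 for each pool. Per the labels' protocols, total RNA was extracted with TRIzol and RNeasy Plus, and amplified with the WT Expression Kit. The authors deposited 1 value for each of 28826 probe sets, used here as a log2 value because of its range, since the base is not stated. The submitters' processing notes name R 2.14.0 and affy. How background was corrected, arrays were normalized and which genome build applied was not given in the sources used. Array medians lay between 7.09 and 7.15, and Pearson correlations between arrays, across probe sets, between 0.962 and 0.995. Scan dates and batches were not given, and any batch cannot be told apart from a group.

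Probe sets with 1 symbol (15209; 306 had several and 13311 none) had to reach the 40th percentile of at least 1 array. Each gene was represented by its probe set of highest mean, for 10947 genes in all. Of the symbols, 15178 matched RefSeq (GRCr8). Age and time were fitted as additive terms with limma 3.58.1 (R 4.3.3), which left 2 residual degrees of freedom, with Benjamini-Hochberg adjustment at 0.05 over all tested genes. It was tested on simulated data. Its p-values rest on the residual spread, which holds any gap between ages that changed with time. No spread between replicate pools of a group was measured. Promoters were searched and aligned with Python 3.11.15 and Biopython 1.88.

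The members, the 6 pathway lists and the 12 marker lists were chosen with earlier results of these data known. The text names the members, the 5 genes closest in profile to each, Cd200, Ptpn6, Inpp5d, Dok1 and Dok2. From each pathway list it also names up to 4 genes with the largest change among those that passed and up to 2 that passed neither comparison with naive. Locus-style names were left out of the closest genes, and Cd68, Clec4a2, Cd72, Cd4, Cd8a, Zbtb46, Mog, Csf3r and Mmp8 were named after their values were seen. So were Clec5a, Milr1, Cd79b, Cd3e, Cd3d, Cd3g and Ms4a1. The results were recomputed with median centring, quantile normalization, a 60th percentile filter, no filter, trended and robust variances, the covariate left out, the mean of probe sets and each array left out.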

Additional observations from a re-analysis of the deposited data

Results flagged for a closer look

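The change from 3 d to 14 d had opposite signs in the ages for all 4 receptor genes, each from 1 array per age and time, and the difference between ages was not tested. It was 0.27 in aged and -1.78 in young rats for Lilrb4, 0.69 in aged and -0.8 in young rats for Cd200r1, 0.84 in aged and -0.34 in young rats for Cd300lf, and 1.42 in aged and -0.48 in young rats for Clec4a. The 14 d minus naive difference of Cd200r1 also had opposite signs, 1.57 in aged and -0.29 in young rats, and this too was not tested.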

How the results depend on the processing

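With 1 array left out, the number of genes called was 748 to 3733 for 3 d against naive, 765 to 3471 for 14 d against naive, 221 to 576 for 14 d against 3 d and 0 to 2 for aged against young, beside 2432, 2734, 346 and 0 with all arrays. The lowest counts against naive came without the aged naive array. For aged against young 1 gene was called with trended and robust variances. Of the genes called at 14 d against naive 54.5% were higher, and 44.2% after median centring. Leaving out 1 array, the fitted differences at 3 d, at 14 d, for 14 d minus 3 d and for aged minus young ranged for Lilrb4 over 2.53 to 4.39, 1.47 to 3.93, -1.99 to 0.47 and -0.10 to 1.35. For Cd200r1 the ranges were 0.14 to 1.25, -0.20 to 1.48, -0.89 to 0.78 and -0.51 to 0.42. For Cd300lf they were 1.06 to 1.96, 1.10 to 2.43, -0.42 to 0.92 and 0.27 to 1.01, and for Clec4a 0.76 to 1.85, 1.43 to 2.66, -0.076 to 1.35 and -0.036 to 0.92. Without the aged 14 d array Clec4a failed the filter. The aged-minus-young differences within each time moved by less than the residual spread under quantile normalization, median centring and the mean of probe sets, in 36 of 36 cases. The mean of probe sets could not move them, since each receptor gene had 1 probe set. Median centring shifts all genes of an array alike. The residual spread also holds any gap between ages that changed with time, so little is read from this count. Signs turned for Cd47 at 14 d after median centring (-0.0164). With 1 array left out the differences from naive ranged over -0.25 (without the aged naive array) to 0.52 for Ceacam1 at 14 d, which was also negative without the aged 14 d array (-0.23), over -0.042 to 1.56 for Clec2d2 and -0.0633 to 0.95 for Ctla2a at 14 d (lowest without the aged 14 d array), and at 3 d over -0.025 to 0.77 for Lilra5, -0.083 to 0.54 for Lilrb2 and -0.071 to 0.87 for Or10aa1 (lowest without the aged naive array). Of these, Ceacam1, Clec2d2, Ctla2a, Lilrb2, Or10aa1 and Cd47 passed at neither time with all arrays, nor did Lilra5 at 3 d. The causes were not tested. Over the other values of named genes 1215 kept their direction and side of the threshold, 49 no longer passed and 48 newly passed. The comparisons of times already held age as a block. Without that term 2050 genes were called for 3 d against naive, 2357 for 14 d against naive and 259 for 14 d against 3 d. Within a group there was 1 array and no replicate number to pair. Pooled RNA on 1 array per group limits every comparison of ages.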
